A study of Homo sapiens with 12 samples.

Results

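The 5 genes described here were grouped under the label of bright mesenchymal genes: VIM, CDH2, ANXA1, S100A6 and IGFBP7. The label names the group, and whether the genes mark a cell type here was not tested. Their values come from all 12 arrays of a study of hepatoprotective agents. The members were every probe that the platform annotation assigns to these symbols, which gave 5 probes, 1 for each gene, among 13881 measured genes. The symbols were chosen by their mean log2 intensity over the 12 arrays, which is high, so their levels are given as a description with no test. Comparisons between groups played no part in the rule, but earlier results of the same arrays were known when the genes were picked. Total RNA came from cells labelled HepG2, an established line from a human liver tumour, grown in DMEM with fetal bovine serum. It was labelled with Cy5 and hybridised to one-colour oligonucleotide arrays. The groups were cells given 25 µM glycyrrhizin, a triterpenoid saponin of liquorice root, 25 µM silymarin, a flavonolignan extract of milk thistle, 25 µM ursodeoxycholic acid, a hydrophilic bile acid, and mock-treated control cells. Each group had 3 arrays. Whether arrays within a group stand for separate cultures is unstated, so p-values here reach no further than spread between arrays, which may be technical. The test used, limma, also moves each gene's spread toward a prior SD shared by all genes, 0.358 on the log2 scale. The residual SDs of the 5 genes, 0.04 to 0.195, lay below that prior. Their SEs, intervals and p-values in the main fit are therefore wider or larger than their own arrays alone would give. The labels leave out treatment time, slides and scan order.

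Mesenchymal cells are motile, spindle-shaped cells of connective tissue, and epithelial cells, including hepatocytes, can take on part of their gene programme in the epithelial-mesenchymal transition. In that transition E-cadherin (CDH1) and keratins give way to N-cadherin and vimentin under transcription factors such as SNAI1, TWIST1 and ZEB1. VIM encodes vimentin, a type III intermediate filament that spans the cytoplasm of mesenchymal cells. CDH2 encodes N-cadherin, a calcium-dependent adhesion molecule that binds beta-catenin inside the cell and that hepatocytes also make. ANXA1 encodes annexin A1, which binds phospholipid membranes in the presence of calcium and acts on formyl peptide receptors. S100A6 encodes calcyclin, a small cytosolic calcium sensor. IGFBP7 encodes a secreted protein that binds insulin and insulin-like growth factors weakly and is deposited around vessels and in matrix.

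The stretches in front of the transcription starts are shown for the genes that the results turn on: S100A6 and CDH2, whose silymarin arrays lay below the other arrays, and VIM and ANXA1, whose groups overlapped. Sequences are from RefSeq on GRCh38.p14, 5′ to 3′ on the gene's strand, and cover the 250 bases before the annotated start. Of the 5 genes 4 matched the promoter table, and IGFBP7 is named only. Capitals mark matches on either strand to 5 short motifs. The TATA box was searched as TATAAA, the core promoter element that places the start. The CCAAT box, which the factor NF-Y binds, was searched by those letters. The GC box of Sp1-type factors was searched as GGGCGG and the AP-1 site of Fos and Jun proteins as TGANTCA. The E-box of Snail-type repressors was searched as CAGGTG. The S100A6 stretch is chr1:153535992-153536241, minus strand. The CDH2 stretch is chr18:28177131-28177380, minus strand. The VIM stretch is chr10:17227991-17228240, plus strand. The ANXA1 stretch is chr9:73151615-73151864, plus strand.
S100A6: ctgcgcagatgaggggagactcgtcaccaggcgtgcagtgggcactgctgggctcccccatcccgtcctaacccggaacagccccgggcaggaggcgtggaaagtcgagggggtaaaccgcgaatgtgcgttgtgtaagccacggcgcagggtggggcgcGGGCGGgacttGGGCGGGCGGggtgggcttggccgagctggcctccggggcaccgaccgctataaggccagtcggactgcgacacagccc
CDH2: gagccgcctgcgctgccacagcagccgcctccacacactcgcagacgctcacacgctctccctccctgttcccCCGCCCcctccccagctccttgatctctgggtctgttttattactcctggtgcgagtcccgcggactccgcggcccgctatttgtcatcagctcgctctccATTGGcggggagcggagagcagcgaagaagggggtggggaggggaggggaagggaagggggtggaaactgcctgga
VIM: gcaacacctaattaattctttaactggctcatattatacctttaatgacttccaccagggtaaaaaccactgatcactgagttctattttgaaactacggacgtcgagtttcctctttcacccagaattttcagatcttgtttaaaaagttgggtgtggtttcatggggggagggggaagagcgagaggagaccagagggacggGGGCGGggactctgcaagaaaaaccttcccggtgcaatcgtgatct
ANXA1: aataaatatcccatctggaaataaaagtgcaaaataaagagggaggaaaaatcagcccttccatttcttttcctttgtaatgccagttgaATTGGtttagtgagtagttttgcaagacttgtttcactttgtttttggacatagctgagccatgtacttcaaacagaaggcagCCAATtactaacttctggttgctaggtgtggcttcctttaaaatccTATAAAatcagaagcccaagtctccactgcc
The 4 stretches differed widely in composition. S100A6 had 70.0% GC, 24 CpG dinucleotides and 3 GC boxes, of which the last 2 overlap. CDH2 had 66.0% GC, 17 CpG, 1 GC box and 1 CCAAT box. VIM had 46.0% GC, 8 CpG and 1 GC box. ANXA1 had 38.4% GC, 0 CpG, 1 TATA box and 2 CCAAT boxes. Over 35114 promoters of the same length the median was 58.0% GC with 11 CpG, so S100A6 and CDH2 lay above it and VIM and ANXA1 below. Of those promoters, 42.6% held a GC box, 32% a CCAAT box, 10.7% a TATA box, 6.6% the AP-1 letters and 17.5% the CAGGTG letters, and neither AP-1 nor CAGGTG letters stood in the 4 stretches printed. CDH2 has another annotated start further inside the gene, whose 250 bases at chr18:28036642-28036891 had 42.0% GC and 1 match each to the TATA, CCAAT and AP-1 letters. A match describes letters and is no evidence of binding, and a link of base composition with the silymarin values was not tested.

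All 5 probes were among the brightest 1% of genes. A percentile orders probes and not amounts of transcript, since probes differ in how well they bind, so no probe's level is set against another's as expression. IGFBP7, at chr4:57030773-57110385 on GRCh38.p14, averaged 15.82 on the log2 intensity scale, the 99.84th percentile of 27561 probes, with 44 probes above it. ANXA1, at chr9:73151865-73170393, averaged 15.82, the 99.84th percentile, with 43 probes above it. S100A6, at chr1:153534599-153535991, averaged 15.56, the 99.69th percentile, with 86 probes above it. These 3 genes and VIM lay close to the top of the scale, where the array has little left to show. VIM, at chr10:17228241-17237593, averaged 15.53, the 99.68th percentile, with 89 probes above it. CDH2, at chr18:27932879-28177130, averaged 14.82, the 99.42nd percentile, with 160 probes above it. Which exon or untranslated region each probe covers is not given in the sources used here.

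On single arrays, CDH2 read 15.00, 14.99 and 14.90 with glycyrrhizin, 14.43, 14.53 and 14.49 with silymarin, 14.88, 14.83 and 15.02 with ursodeoxycholic acid and 14.96, 14.98 and 14.82 in control cells. The 3 silymarin arrays stood apart below the other 9, and the remaining groups overlapped. In rank, the CDH2 probe stood at 194 to 207 with silymarin and at 136 to 162 on the other arrays. As linear intensity this was 22055, 23640 and 22985 with silymarin, against 31774, 32262 and 28957 in control cells. S100A6 read 15.57, 15.84 and 15.69 with glycyrrhizin, 15.14, 15.29 and 15.35 with silymarin, 15.57, 15.68 and 15.38 with ursodeoxycholic acid and 15.54, 15.86 and 15.82 in control cells. Its silymarin arrays were again the 3 lowest, but the highest of them, 15.35, was close to the lowest ursodeoxycholic acid array, 15.38. As linear intensity S100A6 read 36149, 40009 and 41715 with silymarin, against 47479, 59569 and 57802 in control cells.

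VIM read 15.35, 15.78 and 15.42 with glycyrrhizin, 15.37, 15.39 and 15.52 with silymarin, 15.58, 15.67 and 15.46 with ursodeoxycholic acid and 15.27, 15.80 and 15.73 in control cells. The lowest and the highest VIM array were both control arrays, so every group lay inside the control range. ANXA1 read 15.86, 15.82 and 15.80 with glycyrrhizin, 15.77, 15.86 and 15.81 with silymarin, 15.85, 15.80 and 15.87 with ursodeoxycholic acid and 15.80, 15.78 and 15.87 in control cells. All 12 ANXA1 values fell within 0.1 of each other. IGFBP7 read 15.80, 15.72 and 15.81 with glycyrrhizin, 15.99, 15.84 and 15.80 with silymarin, 15.81, 15.75 and 15.81 with ursodeoxycholic acid and 15.76, 15.97 and 15.79 in control cells. One silymarin array and 1 control array were high for IGFBP7, and on that silymarin array it was the probe with rank 2.

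**Figure D1:**
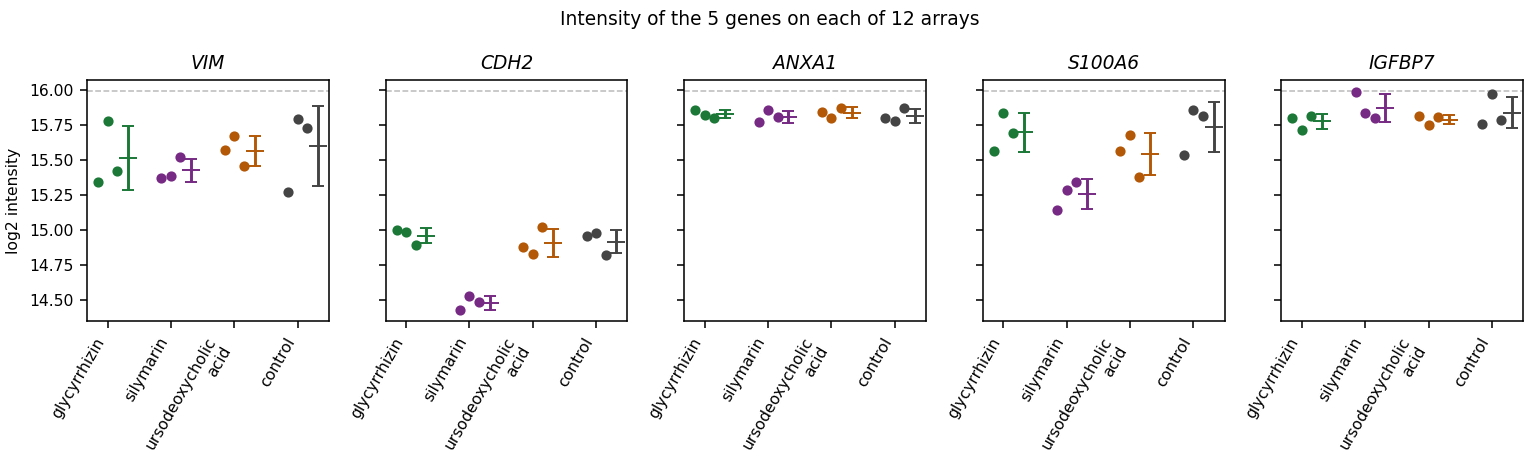
Log2 intensity (vertical axis) of VIM, CDH2, ANXA1, S100A6 and IGFBP7 on each array, with glycyrrhizin, silymarin, ursodeoxycholic acid and control from left to right in each panel. Points are arrays, bars beside them show the mean and SD of 3 arrays, and the dashed line is the highest deposited intensity, 15.99 on the log2 scale; for CDH2 the silymarin points, 14.43 to 14.53, lie below the 14.82 to 15.02 of the other 9 arrays.

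The levels bound what the arrays could register. The highest deposited intensity was 65221 on all 12 arrays, 15.99 on the log2 scale, just under 65535, the largest value of a 16-bit scale. The mean value at rank 50 was 15.81, at rank 100 it was 15.41 and at rank 200 it was 14.49, and 63 probes lay within 0.25 of the maximum. ANXA1 and IGFBP7 could each have gone up by 0.17 before reaching the maximum, a 1.12-fold change for ANXA1 and a 1.13-fold change for IGFBP7. S100A6 had room for 0.43 upward, VIM for 0.46 and CDH2 for 1.17. No saturation call accompanied the values, so whether these spots were saturated was not tested. The spread was narrow as well: the residual SD over the 12 arrays was 0.04 for ANXA1, 0.075 for CDH2, 0.082 for IGFBP7, 0.145 for S100A6 and 0.195 for VIM, against a median of 0.426 over all genes. Bright genes shared this, with a median of 0.129 over the brightest 1%, or 139 genes. Of those 139, 109 varied less than VIM and 83 less than S100A6, while 17 varied less than CDH2 and 5 less than ANXA1.

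Other genes of the same families were spread over the whole range of levels. Among the type III and related intermediate filaments, 8 genes beside VIM were measured, with a median percentile among genes of 32.7, and the highest was NEFM at 80.7, a neurofilament subunit, before PRPH at 77.9 and INA at 56.0, with the neurofilament gene NEFH the lowest at 0.5. Desmin (DES), the muscle relative of vimentin, was at 42.4. Among classical cadherins, 17 beside CDH2 had a median of 57.1, led by CDH5 of endothelial cells at 87.7, CDH15 at 85.7 and CDH9 at 84.1, with CDH12 the lowest at 4.4. The 9 other annexins had a median of 14, with ANXA4 at 96.3, ANXA6 at 91.5, ANXA3 at 85.7 and ANXA5 the lowest at 5.6. The 14 other S100 genes had a median of 58.6, with S100A1 at 94.4 S100A10, the partner of annexin A2, at 80.1, S100A4 at 78.3 and S100B the lowest at 15.0. The 6 other IGF binding proteins had a median of 20.0, and IGFBP5, the highest, was at 64.3, before IGFBP3 at 38.6 and IGFBP2 at 21.6, with IGFBP6 the lowest at 6.3. No other measured member of these 5 families reached the brightest 1%. The 5 genes were picked for their high level, so their place above these relatives was set by that choice.

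The wider mesenchymal lists were mixed in level. Of 8 measured mesenchymal transcription factors, 2 were in the brightest 10% of genes: TWIST1 at the 98.2nd percentile and ZEB2 at 91.8. Their relatives SNAI1 at 81.9 and ZEB1 at 1.8 show how far the list spread. Of 28 measured adhesion, matrix and surface genes, 4 were in the brightest 10%, namely COL6A2 at 96.9, COL5A2 at 95.6, MMP2 at 90.5 and COL1A1 at 90.4, and fibronectin (FN1) was at 50.3 and CCN1 the lowest at 1.1. Of 12 measured cytoskeleton and cytosol genes, 3 were there, namely LGALS1 at 97.0, FLNA at 94.8 and MSN at 91.1, and TPM4 was the lowest at 4.8. LGALS1, which encodes galectin-1, has a second, dimmer probe at the 67.3th percentile of all probes, and the dimmer TWIST1 probe was at 76.3. The medians of the 3 lists were 56.9, 53.0 and 62.8, near the middle of all genes.

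Epithelial genes and cell type markers are described in the same way, and their medians order probes only. Of 24 measured junction and keratin genes, 1 was in the brightest 10%, the tight junction scaffold TJP1 at 94.5, and the list's median was 33.7. CLDN3 at 77.9 and JUP at 73.2 followed, and SPINT1 was the lowest at 2.9. CDH1, which encodes E-cadherin, was at the 27.97th percentile with a mean log2 intensity of 5.5. KRT8 and KRT18, the keratins of hepatocytes, have no named probe among the genes analysed here. Of 9 epithelial regulators, 0 were in the brightest 10%, with a median of 30.1, led by OVOL2 at 74.95, EHF at 68.6 and ESRP1 at 64.4, and KLF5 was the lowest at 2.8. Hepatocyte markers, listed because the label names a liver tumour line, had 17 of 24 genes measured, a median of 50 and 0 in the brightest 10%. APOB was the highest at 81.9, and APOH was at 0.5. Albumin, HNF4A and CEBPA are among the listed markers with no named probe. Fibroblast and stellate cell markers, 10 of 12 measured, had a median of 41.2 with COL1A1 alone in the brightest 10%. Endothelial markers had a median of 57.8 (10 of 10 measured) and leukocyte markers one of 40.2 (8 of 10). Neuroblast and sympathetic neuron markers had one of 66.9 (11 of 14), with TH at 97.0, STMN2 at 94.0 and ISL1 at 90.5. That list was spread widely too: its lowest gene was at 0.1, and 7 of the 11 lay above the median gene.

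**Figure D2:**
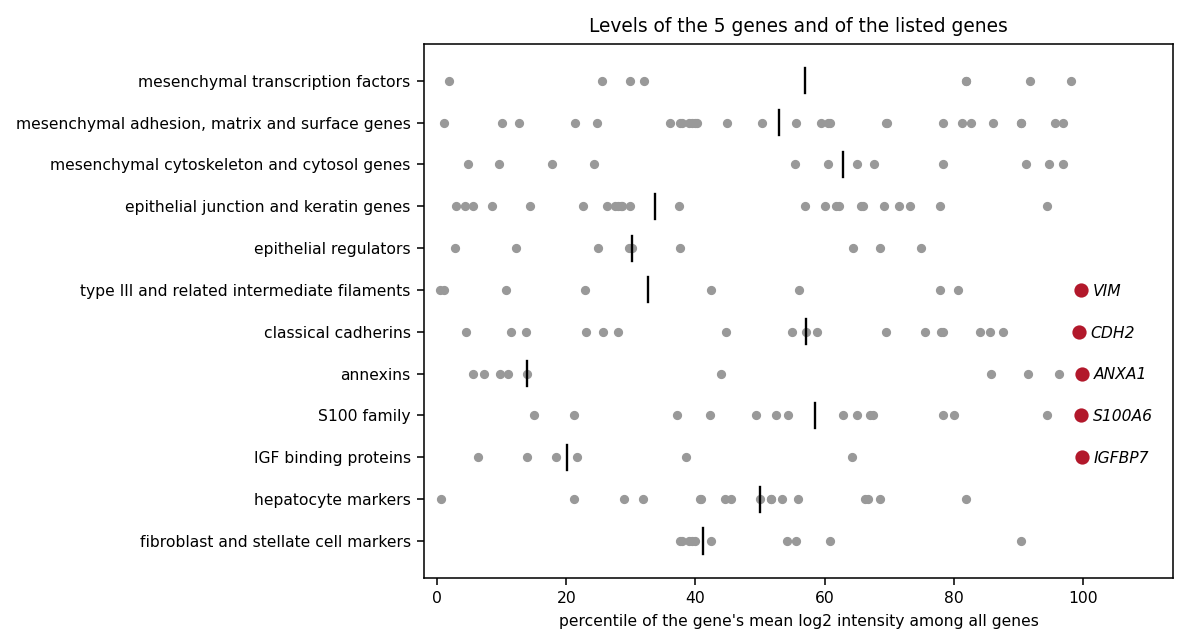
Percentile of the mean log2 intensity among 13881 genes (horizontal axis) for genes of 12 lists (rows). Grey points are listed genes, black ticks the median of each list without the 5 genes, and red points the 5 genes, all above the 99th percentile while the medians of the other listed genes lie between 14 and 62.8. The 5 genes were picked for their high level and the other listed genes were not.

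Genes for proteins that work with the 5 gene products were listed as well. Of 24 listed partners 19 were measured, with a median percentile of 78.0 and 5 in the brightest 10%. CTNNB1, the beta-catenin that links N-cadherin to actin, was at 98.5. IGF1R, the receptor for IGF1, was at 95.3. ARVCF, a catenin of the p120 type, was at 92.5, and FPR1, a formyl peptide receptor that annexin A1 engages, at 91.7. CTNND1, the p120 catenin, was the lowest at 2.2. The TGF-beta pathway, a known inducer of mesenchymal genes, had 18 of 20 genes measured with a median of 62.5, led by TGFB3 at 97.3, SKI at 94.99 and TGFBR2 at 91.6, with SMURF2 the lowest at 20.9. Glucocorticoid receptor targets, a class to which ANXA1 belongs, had 9 of 10 measured and a median of 72.0, led by TSC22D3 at 96.2, KLF9 at 93.7 and PCK1 at 81.4, with NR3C1, the receptor's own gene, the lowest at 2.9.

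Silymarin against control asked whether the extract shifts these genes. CDH2 averaged 14.48 ± 0.05 with silymarin and 14.92 ± 0.08 in control cells (SD, n = 3 each), a log2 difference of -0.44 (SE 0.16, 95% interval -0.78 to -0.09), or 1.35-fold lower intensity. S100A6 averaged 15.26 ± 0.11 with silymarin and 15.74 ± 0.18 in control cells (SD, n = 3 each), a difference of -0.48 (SE 0.18, interval -0.87 to -0.08), or 1.39-fold lower intensity. For both genes every silymarin array lay below every control array, and the difference between means was larger than the SD of either group. Neither passed the test across 13881 genes: limma's adjusted p was 0.865 for CDH2 (unadjusted 0.0179) and 0.901 for S100A6 (unadjusted 0.0219). In this comparison 0 of 5 members were called, and 0% of all genes were. An unadjusted p under 0.05 was reached by 2 of 5 members, against 5.24% of all genes. Counting lower values only, it was 2 of 5 against 2.19% of all genes and 6.47% of the brightest 1%. Full separation downward was seen in 2 of 5 members, against 4.62% of all genes and 15.8% of the brightest 1%. In bulk RNA, fewer cells of a type and less RNA per cell cannot be told apart.

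The other members differed little with silymarin. VIM averaged 15.43 ± 0.08 with silymarin and 15.60 ± 0.29 in control cells, a difference of -0.17 (interval -0.61 to 0.27, limma adjusted p = 0.959). ANXA1 averaged 15.81 ± 0.04 with silymarin and 15.82 ± 0.05 in control cells, a difference of -0.01 (interval -0.34 to 0.32, adjusted p = 0.999). IGFBP7 averaged 15.88 ± 0.10 with silymarin and 15.84 ± 0.11 in control cells, a difference of 0.04 (interval -0.31 to 0.38, adjusted p = 0.992). The ANXA1 and IGFBP7 differences were smaller than the SD of either group, and the VIM difference was smaller than the control SD but larger than the silymarin SD. The median over the 5 members was -0.17, which is the VIM value, and 4 were lower, ANXA1 among them at -0.01. Over all genes the median was 0.02. Among the brightest 1% of genes 72 of 139 were lower, with a median of -0.01. With ursodeoxycholic acid 4 of 5 members were lower than control as well.

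Summed marker intensities were set beside these values. Of 18 lists, 14 had overlapping sums on silymarin and control arrays, 2 lay lower with silymarin and 2 higher. Among single genes, 4.62% of all genes lay fully lower with silymarin than control, and no such share was computed for sums. Some lists share genes, COL1A1 among them, so the sums are not separate results and none was tested. The summed intensity of 10 fibroblast and stellate cell markers ran between 1630 and 1750 on silymarin arrays, against 1766 to 2118 on control arrays. Of the 10 genes, 7 had a negative difference, and 0 were called, as among all genes. COL1A1 made up 44.5% to 64.3% of that sum and differed by -0.29 (adjusted p = 0.959), and without it the sums overlapped, at 731 to 866 with silymarin against 756 to 903 in control cells. The cytoskeleton and cytosol list was the other lower one, at 9281 to 11043 with silymarin against 11876 to 12844 in control cells. The adhesion, matrix and surface list was higher, at 14611 to 14687 with silymarin against 13751 to 14576 in control cells, but without its brightest gene COL6A2 it lay lower, at 8897 to 9460 against 9512 to 10089. The glucocorticoid receptor targets were higher, at 8954 to 9220 with silymarin against 6516 to 8397 in control cells. This list and the cytoskeleton and cytosol list kept their direction without their brightest genes, TSC22D3 and LGALS1. Sums of the 9 other annexins overlapped, but without ANXA4 they lay higher with silymarin, at 2554 to 2760 against 2142 to 2458. TGF-beta pathway sums did likewise without TGFB3, at 7589 to 8108 against 6836 to 7314. The fibroblast and stellate cell sums with glycyrrhizin, 2101 to 2463, and with ursodeoxycholic acid, 1819 to 2532, lay above those with silymarin as well. The dimmest value of those 10 markers on any array was 31.0, below the median deposited intensity of 86.1. Without a detection call, whether each marker is expressed was not tested. The sum of 11 neuroblast and sympathetic neuron markers ran between 8297 and 9518 with silymarin, against 9319 to 10887 in control cells, so the groups overlapped. The sums for leukocyte markers, 2916 to 4622 with silymarin against 3722 to 4315 in control cells, overlapped as well, as did those for endothelial markers, 2099 to 2252 against 2111 to 2201. The part of these cell types in the CDH2 and S100A6 values was not tested.

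Related genes gave no calls with silymarin, where 0 of all 13881 genes were called, so the missing calls are not particular to these lists. Of 17 other cadherins, 11 had a positive and 6 a negative difference from control, with a median of 0.14 and 0 called. CDH22, a dim cadherin at the 13.7th percentile, had the smallest p of them, with a difference of 2.10 (SE 0.40, unadjusted p 0.000277, limma adjusted p = 0.357), opposite in sign to CDH2. Its difference from the same control arrays was 1.38 with glycyrrhizin (adjusted p = 0.621), 1.43 with ursodeoxycholic acid (adjusted p = 0.633) and 1.64 for the mean of the agents (adjusted p = 0.394). CDH8, also dim at the 11.4th percentile, followed at 1.16 (adjusted p = 0.931). Of 14 other S100 genes, 7 were positive and 7 negative, with a median of 0.01 and 0 called. The mesenchymal transcription factors had a median of 0.10 with 6 of 8 positive. The cytoskeleton and cytosol list had a median of -0.16 with 8 of 12 negative, and FLNA, the actin cross-linker filamin A, had the lowest p among them at a difference of -0.62 (adjusted p = 0.836). The epithelial junction and keratin list had a median of -0.11 with 14 of 24 negative. In it CRB3, a polarity protein gene that was dim at the 4.3rd percentile, had the smallest p at a difference of -1.52 (SE 0.35, adjusted p = 0.663). The adhesion, matrix and surface list had a median of -0.04, and NT5E had the smallest p at 0.47 (adjusted p = 0.928). Of the glucocorticoid receptor targets, DUSP1 had the smallest p at 0.91 (adjusted p = 0.865). In none of these lists was a gene called by limma. The partners IGF1R at -0.42 and CTNND1, dim at the 2.2nd percentile, at -1.08 were likewise not called.

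The glycyrrhizin and ursodeoxycholic acid arrays lay close to control for the 5 genes. With glycyrrhizin CDH2 averaged 14.96 ± 0.06 against 14.92 ± 0.08 in control cells, a difference of 0.04 (interval -0.30 to 0.39), and S100A6 averaged 15.70 ± 0.14 against 15.74 ± 0.18, a difference of -0.04 (interval -0.44 to 0.35). VIM differed by -0.08 (interval -0.53 to 0.36), ANXA1 by 0.01 (interval -0.32 to 0.34) and IGFBP7 by -0.06 (interval -0.41 to 0.29). Limma called 0 of 5 members with glycyrrhizin, against 0.0072% of all genes, or 1 gene, and 0 of 5 passed an unadjusted p under 0.05, against 5.71% of all genes. With ursodeoxycholic acid S100A6 averaged 15.54 ± 0.15 against 15.74 ± 0.18 in control cells, the widest difference of the 5 at -0.20 (interval -0.59 to 0.20, adjusted p = 0.91). CDH2 differed by -0.01 (interval -0.35 to 0.34), VIM by -0.03 (interval -0.47 to 0.41), ANXA1 by 0.02 (interval -0.31 to 0.35) and IGFBP7 by -0.05 (interval -0.40 to 0.30). Limma called 0 of 5 members with ursodeoxycholic acid, against 0% of all genes, and 0 of 5 passed the unadjusted p, against 5.55% of all genes. The intervals for glycyrrhizin and ursodeoxycholic acid against control left room for fold changes of up to 1.27 to 1.51, depending on the gene. These misses therefore do not show equal levels. For silymarin against control the limits ran from 1.26 to 1.83. The 3 comparisons of an agent with control share the control arrays.

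The mean of the 3 agents against control gave -0.13 for CDH2 (interval -0.41 to 0.15) and -0.24 for S100A6 (interval -0.56 to 0.08), and -0.09 for VIM, 0.01 for ANXA1 and -0.03 for IGFBP7. The adjusted p was 0.997 for each, and 0 of 5 members were called, against 0% of all genes; at an unadjusted p under 0.05 it was 0 of 5, against 4.56%.

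Set against each other at the same 25 µM, the agents differed most in CDH2 and S100A6 between glycyrrhizin and silymarin. CDH2 averaged 14.96 ± 0.06 with glycyrrhizin and 14.48 ± 0.05 with silymarin (SD, n = 3 each), a difference of 0.48 (SE 0.16, interval 0.13 to 0.82, adjusted p = 0.308), or 1.39-fold. S100A6 averaged 15.70 ± 0.14 with glycyrrhizin and 15.26 ± 0.11 with silymarin, a difference of 0.44 (SE 0.18, interval 0.04 to 0.83, adjusted p = 0.439), or 1.36-fold. Limma called 0 of 5 members here, against 0.0504% of all genes, or 7 genes, while 2 of 5 passed an unadjusted p under 0.05, against 9.86% of all genes. One limma alternative let the prior spread depend on level, which gives bright genes a smaller assumed spread, and also estimated that prior robustly. With both changes together, CDH2 passed the threshold with an adjusted p of 0.0124 (interval 0.30 to 0.66) and S100A6 did not, at 0.0601. Over all alternatives the adjusted p ran between 0.0124 and 0.606 for CDH2 and between 0.0601 and 0.725 for S100A6. In the fit with a level-dependent prior, 1 of 5 members was called, against 217 of 13881 genes counted in both directions. Counting only calls higher with glycyrrhizin, it was 1 of 5 against 0.375% of all genes and 5.04% of the brightest 1%. The same fit gave CDH2 an adjusted p of 0.11 for silymarin against control and S100A6 one of 0.224, so 0 of 5 members were called there, against 0.0288% of all genes. Those p-values ran up to 0.998 for both genes over the alternatives.

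Silymarin against ursodeoxycholic acid showed the same pair of genes low. CDH2 averaged 14.48 ± 0.05 with silymarin and 14.91 ± 0.10 with ursodeoxycholic acid, a difference of -0.43 (SE 0.16, interval -0.77 to -0.08, adjusted p = 0.526). S100A6 averaged 15.26 ± 0.11 with silymarin and 15.54 ± 0.15 with ursodeoxycholic acid, a difference of -0.28 (interval -0.68 to 0.11, adjusted p = 0.652). Limma called 0 of 5 members, against 0.0504% of all genes, or 7 genes, and 1 of 5 passed the unadjusted p, against 8.52%. Between glycyrrhizin and ursodeoxycholic acid the widest difference was that of S100A6, 0.16 (interval -0.24 to 0.55), and the adjusted p ran between 0.896 and 0.994. Limma called 0 of 5 members there, against 0% of all genes, and 0 of 5 passed the unadjusted p, against 5.09%. Across the whole set, all 3 silymarin arrays lay below the other 9 for 2 of 5 members, against 1.07% of all genes, or 148, and 6.47% of the brightest 1%. These silymarin comparisons share the silymarin arrays and are not separate evidence.

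**Figure D3:**
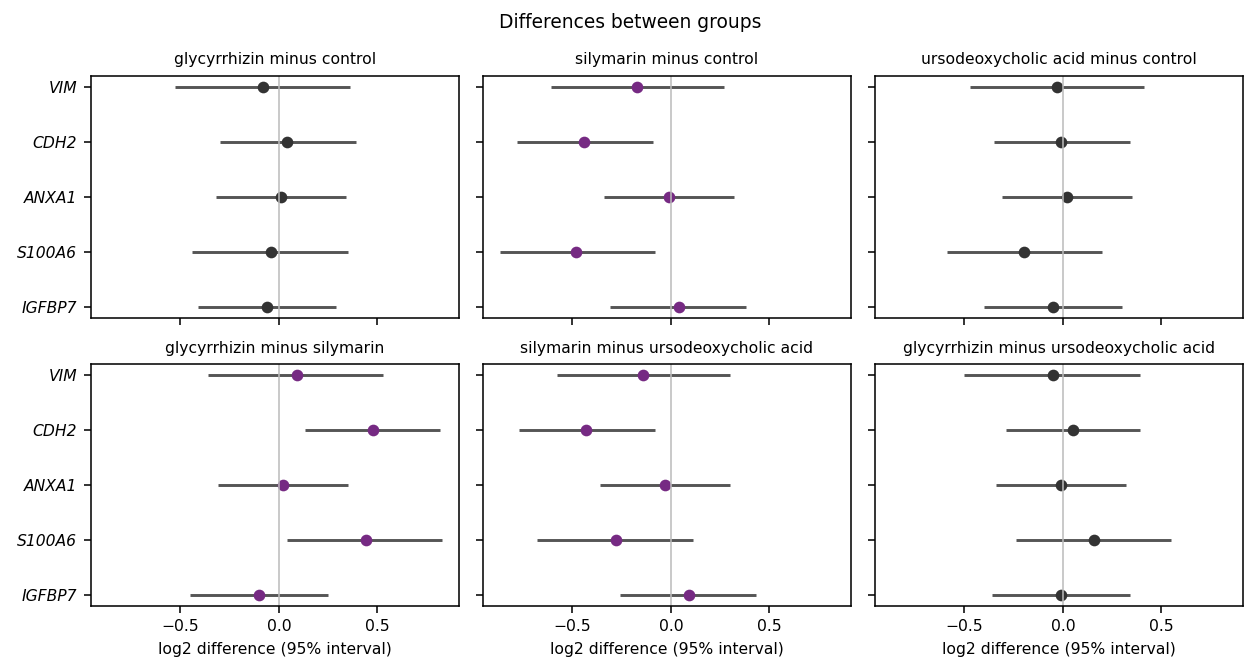
Log2 differences (horizontal axis) of the 5 genes (rows) in 6 comparisons, each named as the first group minus the second, with 95% intervals from limma as lines. CDH2 and S100A6 sit left of 0 for silymarin minus control, at -0.44 and -0.48, and right of 0 for glycyrrhizin minus silymarin, at 0.48 and 0.44, while the intervals of VIM, ANXA1 and IGFBP7 cross 0 in all 6 panels.

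Among the 5 genes, VIM and S100A6 varied together from array to array. Their Pearson r over 12 arrays was 0.71 (Spearman 0.71), 0.53 without the 2 VIM arrays farthest from the median, and 0.91 once each group's mean was taken off. Of 6939 genes above the median level, 58 were more like VIM than S100A6 was. CDH2 and S100A6 gave no such pattern within groups: after removing group means r was -0.35, and since the silymarin arrays form a cluster of their own for CDH2, no pooled value is given for that pair. For ANXA1 and IGFBP7 r was -0.46. It was -0.49 without the 2 ANXA1 arrays farthest from the median. The other pairs that leave CDH2 out lay between -0.32 and 0.02, and some of them moved without the 2 farthest arrays of the first gene: S100A6 with IGFBP7 went to -0.63, VIM with IGFBP7 to -0.30 and VIM with ANXA1 to 0.25. The arrays share normalization and a common upper limit, so these values describe these 12 arrays only.

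**Figure D4:**
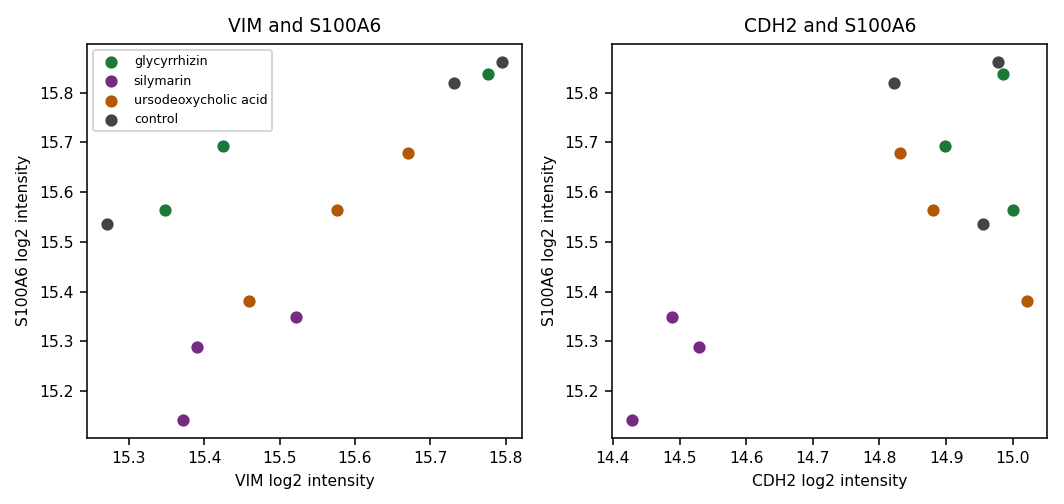
Log2 intensity of VIM against S100A6 (left) and of CDH2 against S100A6 (right), 1 point per array, coloured by group. In the left panel the points of each group run upward together, with r = 0.91 after removing group means; in the right panel the silymarin points lie apart at the lower left, at 14.43 to 14.53 for CDH2 and 15.14 to 15.35 for S100A6.

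The genes whose pattern over the 12 arrays was most like each member were taken from the 6939 genes above the median level, by Pearson r. VIM was most like CCT3, a subunit of the cytosolic chaperonin (r = 0.90), then RHOU (0.88) and CKS2, a cyclin-dependent kinase subunit (0.88), and least like the mitochondrial carrier SLC25A28 (-0.87). S100A6 was most like RNF208 (0.96), ARHGDIA (0.95) and LINC02907 (0.94), and least like RNPS1, a splicing factor (-0.93). For VIM the likeness was also present within groups, where r was 0.94 for CCT3 and 0.95 for CKS2, as it was for S100A6 with RNF208 at 0.92. CDH2 followed the thyroid hormone receptor THRA, lipocalin LCN1 and chitinase-like CHI3L1, and ran opposite to NINJ1, and since the silymarin arrays form the low cluster the values within groups are given: 0.78, 0.59, 0.81 and -0.77. ANXA1 was most like ZNF428 (0.88), the homeobox gene TLX2 (0.85) and GOLM2 (0.84), and least like the peroxisomal import receptor PEX7 (-0.90). IGFBP7 had the loosest companions, SERTAD1 (0.73), DNAAF3 (0.73) and TCEAL9 (0.72), and ran opposite to WHAMM (-0.87), where the Spearman coefficient was -0.41.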

How the data were processed

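Total RNA of 12 one-colour arrays in 4 groups was compared. The authors deposited 1 linear intensity per probe and array, already brought to 1 common distribution; limma is named in the submitters' processing notes, and background correction is not given in the sources used here. A shared distribution fixes each rank's value, so a bright probe can move only by changing rank. The deposited intensity ran between 1 and 65221, with no detection or saturation call, and 3 arrays a group limit the precision. Of 27561 probes, 15650 had 1 gene symbol, 0 several and 11911 none; 2355 symbols were updated through RefSeq (GRCh38.p14) and 68 ambiguous ones kept. The brightest probe stood for each of 13881 genes. On the log2 scale, limma 3.58.1 (R 4.3.3) then estimated group means by lmFit with eBayes moderation (1 mean per group, two-sided, Benjamini-Hochberg over 13881 genes, threshold 0.05), after a test on simulated data. Named were all probes of the members, the 3 most and 1 least similar genes, and from each list of related genes the 3 highest, the lowest and, where unadjusted p was under 0.05 for silymarin against control, up to 2 of smallest p. The members and lists were chosen with earlier results of these data known. Alternatives included a replicate block, array weights, a variance trend with robust estimation, a filter on dim probes, an offset of 16 and each array left out.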

Additional observations from a re-analysis of the deposited data

How the results depend on the processing

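No alternative called a member except the variance trend with robust estimation, which called CDH2 for glycyrrhizin against silymarin (0.48, adjusted p = 0.0124). Of 345 member differences under settings that kept all arrays, 343 kept their direction and side of the threshold; the other exception was ANXA1, glycyrrhizin against ursodeoxycholic acid, which turned to 0.00 under array weights. No clear pairing by replicate number was seen: r of same-number deviations ran over -0.189 to 0.153, with a median of 0.023 against -0.005 for other numbers. Of 18 same-number pairs 4 were over 0.1, and a weak shared effect could be missed. The replicate block changed no member's call, with 0 genes called for glycyrrhizin against control, glycyrrhizin against silymarin and silymarin against ursodeoxycholic acid. Fitting the compared groups alone also gave 0 in those 3.

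Counts of called genes moved under other settings. Without the dimmer 50% of probes they were 3, 2 and 2 for glycyrrhizin, silymarin and ursodeoxycholic acid against control, 110 for glycyrrhizin against silymarin and 4 for silymarin against ursodeoxycholic acid. Under the variance trend, in the same order, they were 17, 4, 6, 217 and 16, with 3 for the mean of the agents. Array weights gave 3, 1 and 4 against control and 20 for glycyrrhizin against silymarin. An offset of 16 gave 2, 1 and 3 against control, 19 for glycyrrhizin against silymarin and 3 for silymarin against ursodeoxycholic acid. With all probes in the fit, an alternative chosen after seeing the data, glycyrrhizin against control gave 0 and silymarin against ursodeoxycholic acid 4. The causes were not tested.

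With each array left out in turn, counts ran over 0 to 1 (glycyrrhizin against control), 0 to 3 (silymarin), 0 to 20 (ursodeoxycholic acid), 0 to 6 (glycyrrhizin against silymarin), 0 to 1 (glycyrrhizin against ursodeoxycholic acid) and 0 to 32 (silymarin against ursodeoxycholic acid), and 0 for the mean of the agents. The 20 and the 32 came without ursodeoxycholic acid replicate 3, the 3 without silymarin replicate 1, and each glycyrrhizin array and silymarin replicate 2 took glycyrrhizin against silymarin to 0 when left out. CDH2 ran over -0.48 to -0.41 for silymarin against control, 0.45 to 0.51 for glycyrrhizin against silymarin and -0.47 to -0.37 for silymarin against ursodeoxycholic acid, and S100A6 over -0.58 to -0.42, 0.37 to 0.51 and -0.36 to -0.21. Over all alternatives the adjusted p for silymarin against control lay between 0.11 and 0.998 for CDH2 and 0.224 and 0.998 for S100A6. Of 420 such member differences 29 changed sign, none of them a silymarin difference of CDH2 or S100A6. For glycyrrhizin against control the ranges were -0.25 to 0.02 (VIM), -0.01 to 0.07 (CDH2), -0.01 to 0.04 (ANXA1), -0.14 to 0.03 (S100A6) and -0.10 to 0.00 (IGFBP7). For silymarin against control they were -0.03 to 0.02 (ANXA1) and -0.02 to 0.10 (IGFBP7). For ursodeoxycholic acid against control they were -0.19 to 0.07 (VIM), -0.06 to 0.03 (CDH2) and -0.09 to 0.02 (IGFBP7). For the mean of the agents they were -0.26 to 0.00 (VIM), -0.01 to 0.04 (ANXA1) and -0.07 to 0.04 (IGFBP7). For glycyrrhizin against silymarin they were -0.04 to 0.17 (VIM) and 0.00 to 0.04 (ANXA1). For glycyrrhizin against ursodeoxycholic acid they were -0.18 to 0.03 (VIM), -0.03 to 0.00 (ANXA1) and -0.03 to 0.02 (IGFBP7).

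With the probes of a gene averaged, the level percentiles were 99.78 (VIM), 99.55 (CDH2), 99.88 (ANXA1) and 99.79 (S100A6). After removing group means, r was 0.91 for VIM with S100A6 and -0.35 for CDH2 with S100A6. A change upward in ANXA1 or IGFBP7 beyond 0.17 could not have been registered.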
